A study of Rattus norvegicus with 9 samples.

Results

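The experiment described here compared hepatic macrophages of rats that had lived for 10 days with a partially tied portal vein (partial portal vein ligation, PPVL) with those of sham-operated rats, across all genes. The members were chosen by their labels alone: the 3 arrays titled PPVL 10 day and the 3 titled sham, 6 of the 9 arrays of the series. The other 3 arrays came from rats studied 3 days after PPVL, and they entered the fit as a group of their own. All animals were male Sprague-Dawley rats. In PPVL a ligature is tied around the portal vein and a blunt 20-gauge needle laid beside it, and pulling the needle out leaves a stenosis of fixed width. Sham rats had the same operation with no ligature. The labels describe each array as cells of a separate rat. They give no age and no day for the sham rats, so ligation and time since surgery cannot be told apart if the sham rats were studied on another day.

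The portal vein carries blood from the gut and spleen to the liver, and narrowing it raises portal pressure and opens collateral vessels without a primary injury of the liver cells. Macrophages in the liver sinusoids comprise resident Kupffer cells, which clear particles, bacterial products and old red cells from portal blood, and cells that arrive as blood monocytes. Macrophages release lipid mediators, matrix proteins, proteases and vasoactive and angiogenic factors, and they present antigen to T cells. Which of these gene programmes differed from sham after the narrowing had been in place for 10 days is what the comparison asks.

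Total RNA was labelled with biotin and hybridised to 1-colour Affymetrix arrays. Values are log2 signals that the authors computed by RMA (robust multi-array average), so a difference of 1 is a 2-fold change. Differences are given with their standard error, 10 days minus sham, n = 3 rats per group throughout. The arrays had medians of 5.22 to 5.27 and correlated at 0.987 to 0.993 across probesets. Signals of different genes come from different probes and are not set against each other. "Rose" and "fell" are used for genes with an adjusted p under 0.05 in limma, a linear model test for arrays, after Benjamini-Hochberg adjustment over all 14014 genes tested. With groups this small, the smallest p that exact permutation can give is 0.1.

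At 10 days 103 of 14014 genes had changed, which is 0.735% of those tested. Of these, 69 rose (0.492%) and 34 fell (0.243%). Sizes ran from 0.29 to 1.29, with medians of 0.59 among genes that rose and -0.55 among genes that fell. Rises of 2-fold or more were found for 3 genes, Pla2g2d, Prg4 and Fam20c, and no fall reached 2-fold. Signals of the 2 groups did not overlap for any of the 103 genes, and the same held for 21.0% of all genes tested. The quartiles of all differences were -0.087 and 0.089, with a median of -0.00040. Without adjustment, 2271 genes had p under 0.05 in limma, 1120 of them higher and 1151 lower. The shares over all genes given here are the background for counts of calls in the gene lists below. Those lists were written with earlier results of these data known, so their counts are no separate support.

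All 103 calls lay close to the threshold, with adjusted p from 0.0400 to 0.0497. The calls depended on single arrays. Without sham rat 1 the count was 11, without sham rat 2 or sham rat 3 it was 0, and without 10-day rat 1, 2 or 3 it was 1, 2 and 0. Without 3-day rat 1, 2 or 3, which affect only the shared spread, it was 137, 45 and 140. Of the 11 genes called without sham rat 1, 3 were among the 103. Of those called without 10-day rats 1 and 2, 0 and 1 were among them. No gene kept its call in more than 4 of these 9 fits. The differences themselves moved less, and none of the 103 moved by over 1.5 times. Unadjusted limma p values of these genes reached at most 0.00227 in the 9 fits. Their direction could not turn, because the groups did not overlap for any of them, and leaving out a 3-day array does not change a difference. The genes were chosen by their p on these same arrays, so these values are no separate support for the calls.

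Markers of lymphocytes differed between the groups on the same arrays. A score, the mean over a list of each gene's deviation from its mean over 9 arrays, was lower at 10 days by 0.40 for T cells and by 0.32 for natural killer cells, and higher by 0.48 for B cells, with no overlap between the groups in any of the 3. Separate groups were not particular to these lists: the macrophage lineage, lysosome, class II presentation and hepatocyte scores did not overlap either. In whole-sample RNA, fewer cells of a type and less RNA per cell cannot be told apart. The part of these cells in the changes described here was not tested.

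**Figure D1:**
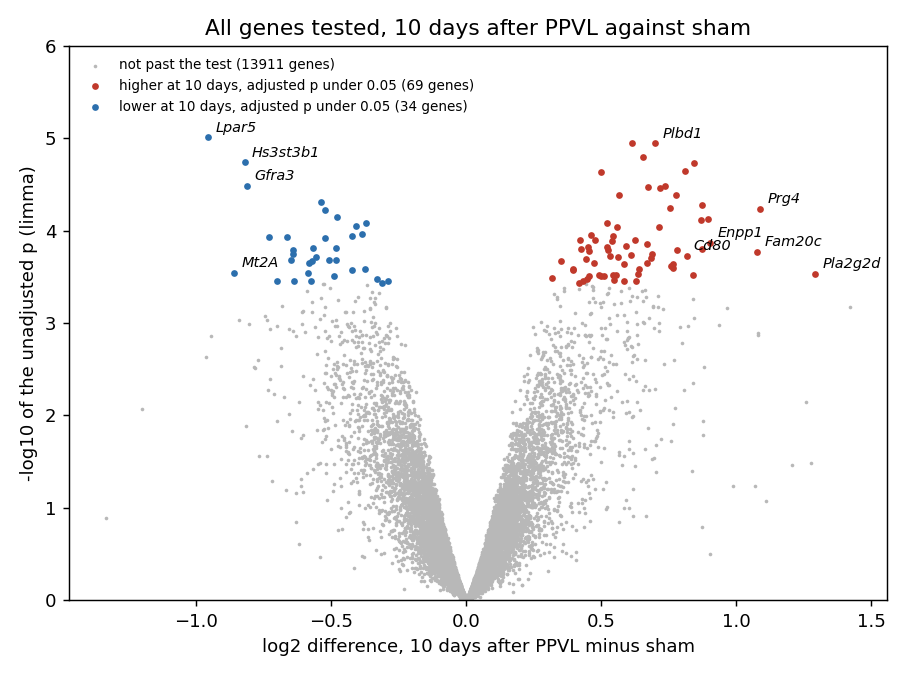
Each point is 1 of the 14014 genes tested, placed by its log2 difference (10 days after PPVL minus sham, horizontal axis) and by -log10 of its unadjusted limma p (vertical axis). The 69 genes that rose are red and the 34 that fell are blue. The rises reach further from 0 than the falls, with Pla2g2d at 1.29 and Lpar5 at -0.96 as the outermost calls.

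Among the 103 genes that passed, the largest rise and the largest fall were both of genes of lipid enzymes and lipid mediators. Pla2g2d, a secreted phospholipase A2 that macrophages and dendritic cells release, had signals of 7.35, 7.20 and 7.26 in sham rats 1 to 3 and 8.94, 8.60 and 8.13 in 10-day rats 1 to 3. The lowest 10-day array lay above every sham array, and the 10-day rats were spread more widely than the sham rats. It rose by 1.29 ± 0.23, or 2.45-fold (adjusted p = 0.0485). Lpar5, a receptor for lysophosphatidic acid, the kind of lipid that phospholipases help to make, had signals of 10.57, 10.36 and 10.27 in sham rats and 9.42, 9.59 and 9.33 at 10 days. The groups did not overlap, and it fell by 0.96 ± 0.11 (1.94-fold lower, adjusted p = 0.0400). Among 20 tested phospholipases A2 and lysophospholipid receptors these 2 were the ones that passed, with a list median of -0.09. Plpp3, a phosphatase that removes lysophosphatidic acid, differed by -0.61 ± 0.12 (adjusted p = 0.0624) and the sphingosine-1-phosphate receptor S1pr3 by 0.56 ± 0.16 (adjusted p = 0.119).

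Tbxas1, thromboxane synthase, was the 1 of 16 eicosanoid genes to pass, against 0.735% of all genes. Its signals were 7.62, 7.93 and 7.83 in sham rats and 8.69, 8.54 and 8.58 at 10 days, a rise of 0.81 ± 0.11 (adjusted p = 0.0400) with a gap between the groups larger than the spread within either. The enzyme that starts the pathway from arachidonic acid in activated macrophages, Ptgs2 (cyclooxygenase-2), had a difference of -0.41 ± 0.12 (adjusted p = 0.129), and Alox5ap, which feeds leukotriene synthesis, one of 0.48 ± 0.14 (adjusted p = 0.126). The median of the eicosanoid list was -0.0080. Ch25h, which makes 25-hydroxycholesterol, rose by 0.76 ± 0.13, and Pon3, a lactonase of lipoproteins, by 0.84 ± 0.15, the single riser of 18 lipid handling genes. That list had 7 genes higher and 1 lower at an unadjusted limma p under 0.05, against 7.99% and 8.21% of all genes. Fabp4, a fatty acid carrier of macrophages, differed by 0.84 ± 0.18 without passing (adjusted p = 0.0674). Of 16 cholesterol synthesis genes none passed, with a median of 0.02.

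Genes of extracellular matrix, phosphate and sulfate chemistry were among the largest rises. Prg4 encodes lubricin, a mucin-like lubricating glycoprotein. Its signals were 6.72, 7.13 and 7.05 in sham rats and 7.99, 7.85 and 8.33 at 10 days. All 3 rats after PPVL lay above all sham rats, and Prg4 rose by 1.09 ± 0.16 (2.13-fold, adjusted p = 0.0438). Fam20c, the Golgi kinase that phosphorylates secreted proteins, had 6.09, 6.73 and 6.82 in sham rats and 7.68, 7.45 and 7.74 at 10 days. Sham rat 1 was the lowest array and widened the sham spread, but the groups did not overlap, with a rise of 1.08 ± 0.18 (2.11-fold, adjusted p = 0.0449). Enpp1, which releases pyrophosphate outside the cell, had 7.45, 7.76 and 8.01 and 8.75, 8.63 and 8.55 in the same order, and rose by 0.90 ± 0.15 (adjusted p = 0.0449). The related Enpp3 differed by 0.71 ± 0.14 and missed the threshold (adjusted p = 0.0595).

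Sulf2, an extracellular sulfatase that trims heparan sulfate, rose from 6.18, 6.45 and 6.34 to 7.31, 7.08 and 7.11, by 0.84 ± 0.11 (adjusted p = 0.0400). With Fam20c and Enpp1 it made 3 of 13 tested genes of phosphate, sulfate and mineral regulation that rose, against 0.492% of all genes. Of the 13, 12 had differences above 0 (list median 0.21, against 49.8% of all genes above 0). That list was written with earlier results of these data known, so these counts are no separate support for the calls. Heparan sulfate synthesis moved both ways. Xylt1, which starts the sugar chain on the core protein, rose by 0.65 ± 0.082 (adjusted p = 0.0400). Hs3st3b1, a 3-O-sulfotransferase acting late on the chain, had signals of 8.43, 8.34 and 8.77 in sham rats and 7.63, 7.78 and 7.66 at 10 days. All 3 arrays at 10 days lay below sham, and it fell by 0.82 ± 0.10 (adjusted p = 0.0400). Its paralogue Hs3st3a1 differed by -0.59 ± 0.11 (adjusted p = 0.0531), and probes of such close relatives may share signal. These 2 calls were all that 20 heparan sulfate genes gave, and the list median was -0.011.

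B4galt6, a Golgi galactosyltransferase that makes lactosylceramide, rose by 0.90 ± 0.14 (adjusted p = 0.0449) as 1 of 28 Golgi glycosyltransferases. Others in that list differed in both directions without passing, from B3gnt5 at 0.84 ± 0.17 to Mgat4a at -0.68 ± 0.14. Arsb, the lysosomal sulfatase of dermatan and chondroitin sulfate, fell by 0.49 ± 0.089 (adjusted p = 0.0485). Among 21 secreted matrix genes and matrix proteases Prg4 alone passed, against 0.735% of all genes. That list had 8 genes higher and 2 lower at an unadjusted limma p under 0.05, against 7.99% and 8.21% of all genes. Fibronectin (Fn1) differed by 0.53 ± 0.10 (adjusted p = 0.0522), Tgfbi by 0.61 ± 0.12, the membrane-bound protease Mmp14 by 0.70 ± 0.19 and the gelatinase Mmp9 by -0.38 ± 0.078, with adjusted p of 0.0558, 0.118 and 0.0624.

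**Figure D2:**
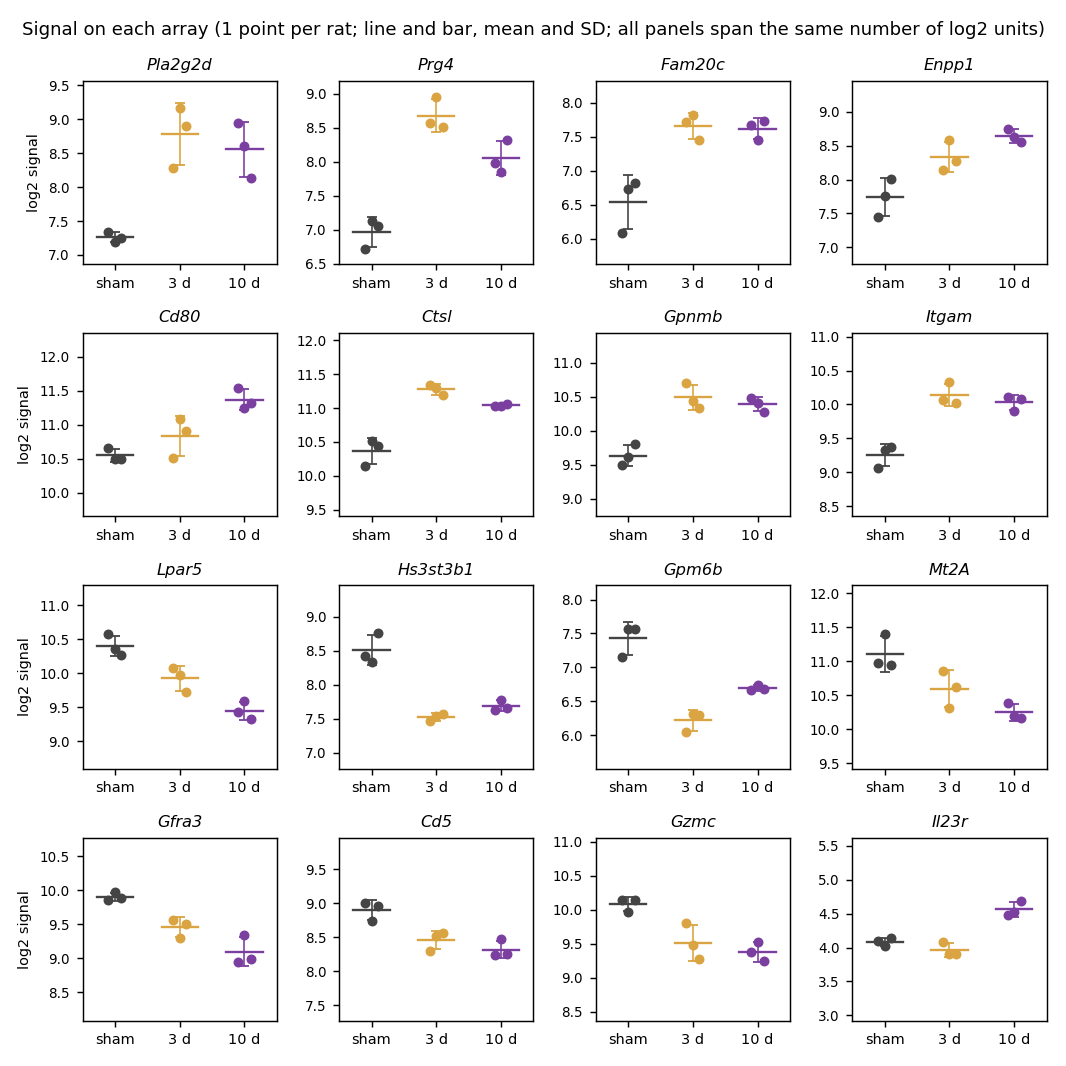
Signals of 16 genes on each array (log2, vertical axis), in sham rats, 3 days after PPVL and 10 days after PPVL. Points are rats, the line is the group mean and the bar its SD (n = 3), and all panels span the same number of log2 units. Signals at 10 days lie wholly above sham in the panels from Pla2g2d to Itgam and in that of Il23r, and wholly below it in those from Lpar5 to Gzmc.

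The macrophage label was set against marker lists. Markers of the macrophage lineage had signals well above the filter for dim genes at 4.16: Cd68, a lysosomal glycoprotein of macrophages, had 10.74, 11.10 and 11.01 in sham rats and 11.41, 10.98 and 11.27 at 10 days, and Csf1r, the receptor for the macrophage growth factor, had 9.75, 9.99 and 9.94 and 10.61, 10.38 and 10.44. The defining Kupffer cell gene Clec4f had 4.76, 4.51 and 4.65 and 5.07, 5.24 and 5.46, and the haemoglobin scavenger receptor Cd163 had 4.40, 4.23 and 4.42 and 4.68, 4.33 and 4.45. Cd163 was low on all 6 arrays, and Clec4f was dim too, at 4.51 to 5.46 against array medians of 5.22 to 5.27. The 10-day rats lay above the sham rats for Clec4f. Signal of lymphocyte genes was also present on all 6 arrays, such as that of Cd3e, a chain of the T cell receptor complex, with 9.91, 9.57 and 9.72 in sham rats and 9.24, 9.45 and 9.27 at 10 days.

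Of 19 macrophage lineage genes, 14 had differences above 0, against 49.8% of all genes, with a median of 0.24. Against 0.492% of all genes, 1 of the 19 rose. This was Maf, a transcription factor of tissue macrophages (7.47, 7.31 and 7.18 in sham rats, 8.02, 7.78 and 8.17 at 10 days, a rise of 0.67 ± 0.12, adjusted p = 0.0449). Aif1 (IBA1) differed by 0.69 ± 0.14, Csf1r by 0.59 ± 0.15 and Adgre1 (F4/80) by 0.50 ± 0.12. None of these 3 passed, with adjusted p of 0.0595, 0.104 and 0.0910, although their groups did not overlap. Irf8, a transcription factor of macrophages and dendritic cells, lay the other way, with 10.97, 10.97 and 10.98 in sham rats and 10.67, 10.74 and 10.63 at 10 days. Its groups did not overlap either, and the difference of -0.30 ± 0.060 did not pass (adjusted p = 0.0595). Among 19 Kupffer cell identity genes (median 0.14) Fcna, a ficolin that binds sugars on microbes, rose by 0.52 ± 0.080 (adjusted p = 0.0449). Clec4f differed by 0.62 ± 0.23 (adjusted p = 0.229) and Cd163 by 0.14 ± 0.19 (adjusted p = 0.778). The phosphatase Ptprc (CD45), carried by all leukocytes, differed by 0.016 ± 0.054, with a 95% interval of -0.10 to 0.14. The macrophage lineage score was -0.27, -0.11 and -0.13 in sham rats and 0.12, -0.0018 and 0.08 at 10 days, while the T cell and natural killer cell scores were lower.

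In the list of recruited monocytes 14 of 16 genes were above 0, against 49.8% of all genes, with a median of 0.31. Itgam was the 1 that rose, against 0.492% of all genes. Itgam encodes CD11b, the integrin chain by which monocytes and neutrophils adhere. Its signals were 9.07, 9.33 and 9.38 in sham rats and 10.11, 9.91 and 10.08 in 10-day rats, so the groups were separate, and it rose by 0.78 ± 0.11 (1.71-fold, adjusted p = 0.0414). The monocyte genes S100a4 (0.59 ± 0.13) and Treml4 (0.69 ± 0.14) missed the threshold, with adjusted p of 0.0705 and 0.0595. The promoter of Itgam, 250 bases before the RefSeq gene start (GRCr8, chr1:192089342-192089591, + strand), is shown because transcription of this gene in myeloid cells is known to use PU.1, a factor that binds GAGGAA. Capitals mark GAGGAA or its reverse complement, found 2 times.
Itgam: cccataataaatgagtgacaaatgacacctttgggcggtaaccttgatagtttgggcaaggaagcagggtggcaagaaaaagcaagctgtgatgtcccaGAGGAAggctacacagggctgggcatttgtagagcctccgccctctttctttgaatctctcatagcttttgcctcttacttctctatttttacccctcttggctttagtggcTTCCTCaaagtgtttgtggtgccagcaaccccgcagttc

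The scar-associated macrophage list, named after macrophages found in fibrotic liver, had 3 of 14 genes that rose and 13 above 0 (median 0.32). Among all genes 0.492% rose and 49.8% lay above 0. Gpnmb, a glycoprotein of lysosomes and phagosomes, had signals of 9.49, 9.61 and 9.81 in sham rats and 10.48, 10.41 and 10.28 at 10 days, with no overlap, and rose by 0.75 ± 0.11 (adjusted p = 0.0438). Cathepsin L (Ctsl), a lysosomal protease, had 10.15, 10.52 and 10.44 and 11.03, 11.03 and 11.06. The 3 rats after PPVL were nearly alike, sham rat 1 was lowest, and Ctsl rose by 0.67 ± 0.093 (adjusted p = 0.0400). Galectin-3 (Lgals3) rose by 0.55 ± 0.10 (adjusted p = 0.0491). Osteopontin (Spp1) differed by 0.48 ± 0.17 (adjusted p = 0.196) and the lipid receptor Trem2 by 0.20 ± 0.084 (adjusted p = 0.281). The Gpnmb promoter, shown for the same motif (GRCr8, chr4:79340878-79341127, + strand) held GAGGAA 1 time, in capitals.
Gpnmb: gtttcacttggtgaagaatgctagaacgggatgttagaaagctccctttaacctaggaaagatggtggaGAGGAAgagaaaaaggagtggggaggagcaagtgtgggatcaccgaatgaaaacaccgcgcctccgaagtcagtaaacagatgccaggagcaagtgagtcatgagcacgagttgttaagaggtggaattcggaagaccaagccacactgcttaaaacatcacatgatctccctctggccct

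All 21 tested lysosome genes had differences above 0, from 0.016 to 0.72 with a median of 0.27, and 2 rose. Besides Ctsl this was Asah1, acid ceramidase, with 7.54, 7.73 and 7.89 in sham rats and 8.52, 8.31 and 8.48 at 10 days and a rise of 0.72 ± 0.10 (adjusted p = 0.0400). At an unadjusted p under 0.05, 14 of the 21 were higher and 0 lower, against 7.99% higher among all genes. Neu1, a sialidase, differed by 0.61 ± 0.12, the protease legumain (Lgmn) by 0.35 ± 0.070 and cathepsin D (Ctsd) by 0.47 ± 0.11, none past the test (adjusted p = 0.0566, 0.0595 and 0.0788). Outside the list, genes of related enzymes passed in both directions. Smpdl3a, a phosphodiesterase of the acid sphingomyelinase family, rose by 0.69 ± 0.12, and Plbd1, a phospholipase B-like protein, by 0.70 ± 0.085. The lysosomal sulfatase Arsb, also outside the list, fell by 0.49 ± 0.089. The lysosome score was -0.34, -0.16 and -0.14 in sham rats and 0.15, 0.02 and 0.09 at 10 days. Sham rat 1 was the lowest, and the difference of 0.30 was 0.23 without it.

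Among genes of uptake, 2 receptors rose and a secreted bridging protein fell. Lrp1, which takes up lipoproteins and haem bound to haemopexin, had 8.58, 8.90 and 8.86 in sham rats and 9.50, 9.47 and 9.56 at 10 days and rose by 0.74 ± 0.10 (adjusted p = 0.0400). The scavenger receptor Msr1 rose by 0.52 ± 0.086 (adjusted p = 0.0449). Mfge8, a bridge between dying cells and phagocytes, fell by 0.54 ± 0.078 (adjusted p = 0.0438). These were 3 of 22 scavenger and phagocytic receptor genes, against 0.735% of all genes, with a median of 0.13. The list had 6 genes higher and 2 lower at an unadjusted limma p under 0.05, against 7.99% and 8.21% of all genes. In iron and haem recycling Lrp1 was the 1 riser of 22 genes (median 0.14). The iron exporter Slc40a1 (ferroportin) differed by 0.48 ± 0.17, haem oxygenase 1 (Hmox1) by 0.35 ± 0.12 and the transferrin receptor Tfrc by -0.24 ± 0.081 (adjusted p = 0.203, 0.190 and 0.186). Gpx1, a glutathione peroxidase, rose by 0.45 ± 0.082 (adjusted p = 0.0491) as 1 of 23 antioxidant and oxidant genes. That list had a median of 0.14. At an unadjusted limma p under 0.05, 9 of its genes were higher and 0 lower, against 7.99% and 8.21% of all genes. Its score differed by 0.097 between the groups, which overlapped, and by 0.030 without sham rat 1.

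Mt2A, a metallothionein that binds zinc and copper, had the second largest fall. Its signals were 10.98, 11.41 and 10.94 in sham rats and 10.39, 10.20 and 10.16 at 10 days. Sham rat 2 stood highest, the groups did not overlap, and Mt2A fell by 0.86 ± 0.16 (1.81-fold lower, adjusted p = 0.0485). A second probeset of Mt2A differed by -1.10. The relatives Mt1 (-0.38 ± 0.24) and Mt3 (0.057 ± 0.067) did not pass, nor did any of the 14 other tested genes of metal binding and zinc transport (list median -0.017). Transcription of metallothioneins is known to respond to zinc through a metal response element with the core TGCACNC or TGCGCNC. The Mt2A promoter (GRCr8, chr19:10838709-10838958, - strand) is shown for these cores, in capitals on either strand, 4 in all.
Mt2A: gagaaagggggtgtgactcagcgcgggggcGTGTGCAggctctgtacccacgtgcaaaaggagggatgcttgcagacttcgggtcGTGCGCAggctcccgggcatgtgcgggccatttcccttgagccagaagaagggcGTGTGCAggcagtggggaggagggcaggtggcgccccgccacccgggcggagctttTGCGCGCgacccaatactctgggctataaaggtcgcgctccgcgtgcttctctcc

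Both motifs are common in promoters. GAGGAA was found on either strand in 23.4% of 11303 tested genes' promoters of this length, in 19 of 55 promoters of genes that rose (34.5%) and in 3 of 25 of genes that fell (12.0%). The metal response core was found in 29.4% of all, 16 of 55 (29.1%) and 10 of 25 (40.0%). Promoters were matched for 80 of the 103 genes, and these shares are descriptions with no test.

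Genes of macrophage activation gave few calls. Egr2, a transcription factor induced by interleukin-4, rose by 0.61 ± 0.10 (adjusted p = 0.0449), the 1 of 19 alternative activation genes (median 0.18) to pass. At an unadjusted limma p under 0.05, 6 of the 19 were higher and 3 lower, against 7.99% and 8.21% of all genes. The 3 lower were the cytokine Il10 with a difference of -0.53 ± 0.17, its receptor chain Il10ra with -0.19 ± 0.081 and the interleukin-4 receptor Il4r with -0.30 ± 0.082 (adjusted p = 0.164 for Il10 and 0.118 for Il4r, and an unadjusted limma p of 0.0467 for Il10ra). Arginase 1 (Arg1) had 8.70, 8.52 and 8.66 in sham rats and 10.09, 9.51 and 9.09 at 10 days. Its groups did not overlap, the 10-day rats were widely spread, and the difference of 0.94 ± 0.20 missed the threshold (adjusted p = 0.0698). The chemokine Ccl24 differed by 1.08 ± 0.24 (adjusted p = 0.0705) and the mannose receptor Mrc1 by 0.19 ± 0.22 (adjusted p = 0.732). Oscar, a receptor for exposed collagen, rose by 0.77 ± 0.14 (adjusted p = 0.0479).

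None of 21 inflammatory genes, 22 chemokines or 20 endotoxin sensing genes passed, with medians of -0.0027, 0.012 and 0.13. At an unadjusted limma p under 0.05 they had 2, 2 and 5 genes higher and 2, 2 and 1 lower. Among all genes 7.99% were higher and 8.21% lower at that p. Tnf differed by 0.042 ± 0.17 (95% interval -0.33 to 0.41), Il1b by -0.020 ± 0.12 (-0.29 to 0.25), the inducible nitric oxide synthase Nos2 by -0.062 ± 0.10 (-0.29 to 0.16) and Il6 by -0.61 ± 0.28 (-1.25 to 0.025). The interval of Il6 was the widest, and those of the other 3 genes lay between -0.33 and 0.41. The monocyte chemokine Ccl2 differed by 0.14 ± 0.084, the endotoxin co-receptor Cd14 by 0.30 ± 0.17 and Tlr4 by 0.20 ± 0.20 (adjusted p = 0.465, 0.412 and 0.676).

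Cd80, the ligand by which antigen-presenting cells co-stimulate T cells, rose as 1 of 19 costimulation genes. Its signals were 10.66, 10.50 and 10.49 in sham rats and 11.54, 11.24 and 11.32 at 10 days, with no overlap and a rise of 0.82 ± 0.14 (1.76-fold, adjusted p = 0.0449). A second probeset differed by 0.87. Its partner Cd86 differed by 0.29 ± 0.11 (adjusted p = 0.240) and Cd40 by 0.50 ± 0.10 (adjusted p = 0.0568). In class II presentation 12 of 14 genes were above 0, against 49.8% of all genes, with a median of 0.34. Of these RT1-DOa, a chain of the DO molecule that B cells express strongly, rose by 0.58 ± 0.11 (adjusted p = 0.0491). RT1-Da, a chain of the presenting molecule itself, differed by 0.33 ± 0.10 (adjusted p = 0.144). Class II genes are expressed by macrophages and B cells alike, and B cell markers were higher on the same arrays (score difference 0.48). The part of B cells in the class II values was not tested.

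Type I interferon response genes were mostly lower, and none of 33 passed. Of these, 3 had differences above 0, against 49.8% of all genes, and the median was -0.20. At an unadjusted limma p under 0.05, 0 were higher and 7 lower, against 7.99% and 8.21% of all genes. The nucleic acid sensor Zbp1 differed by -0.54 ± 0.11 (adjusted p = 0.0558) and the antiviral GTPase Mx2 by -0.70 ± 0.22 (adjusted p = 0.169). Rats within the 10-day group differed from one another. The interferon score was 0.27, 0.12 and 0.24 in sham rats, 0.28 in 10-day rat 1 and -0.12 and -0.17 in 10-day rats 2 and 3. Isg15 had 7.11, 6.97 and 7.38 in sham rats and 7.27, 6.36 and 5.68 at 10 days, so that 10-day rat 1 lay among the sham rats. Without it the score difference was -0.36 in place of -0.21.

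Vasoactive and angiogenic genes, of interest because portal hypertension involves vessel tone and new vessels, gave 1 call. Nrp2, a co-receptor for vascular endothelial growth factor C and semaphorins, had 8.56, 8.73 and 8.78 in sham rats and 9.24, 9.25 and 9.20 at 10 days and rose by 0.54 ± 0.088 (adjusted p = 0.0449). It was the 1 call among 18 angiogenic genes (median 0.045), against 0.735% of all genes. Its relative Nrp1 differed by 0.66 ± 0.18 (adjusted p = 0.115) and the ligand Angpt1 by 0.60 ± 0.13 (adjusted p = 0.0698). Vegfa differed by -0.0075 ± 0.10 (95% interval -0.23 to 0.21) and the placental growth factor gene Pgf by 0.048 ± 0.091 (-0.16 to 0.25). Among 19 vasoactive mediators (median 0.015) none passed. The largest differences were those of Arg1, given above, and of the cannabinoid receptor Cnr2, 0.60 ± 0.14 (adjusted p = 0.0713).

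The lists of energy metabolism, the cell cycle, stress and class I loading gave no call. No gene passed among 25 of oxidative phosphorylation (median -0.055), 31 of the cell cycle (0.0019), 20 of hypoxia and glycolysis (0.073), 20 of endoplasmic reticulum stress (-0.023), 21 of the Fos, Jun and isolation stress list (-0.023) and 15 of class I loading (-0.059). In these 6 lists 0 to 5 genes were higher and 1 to 5 lower at an unadjusted p under 0.05 with limma. The shares over all genes were 7.99% higher and 8.21% lower. Mki67, a marker of dividing cells, differed by -0.016 ± 0.15 (95% interval -0.36 to 0.32).

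**Figure D3:**
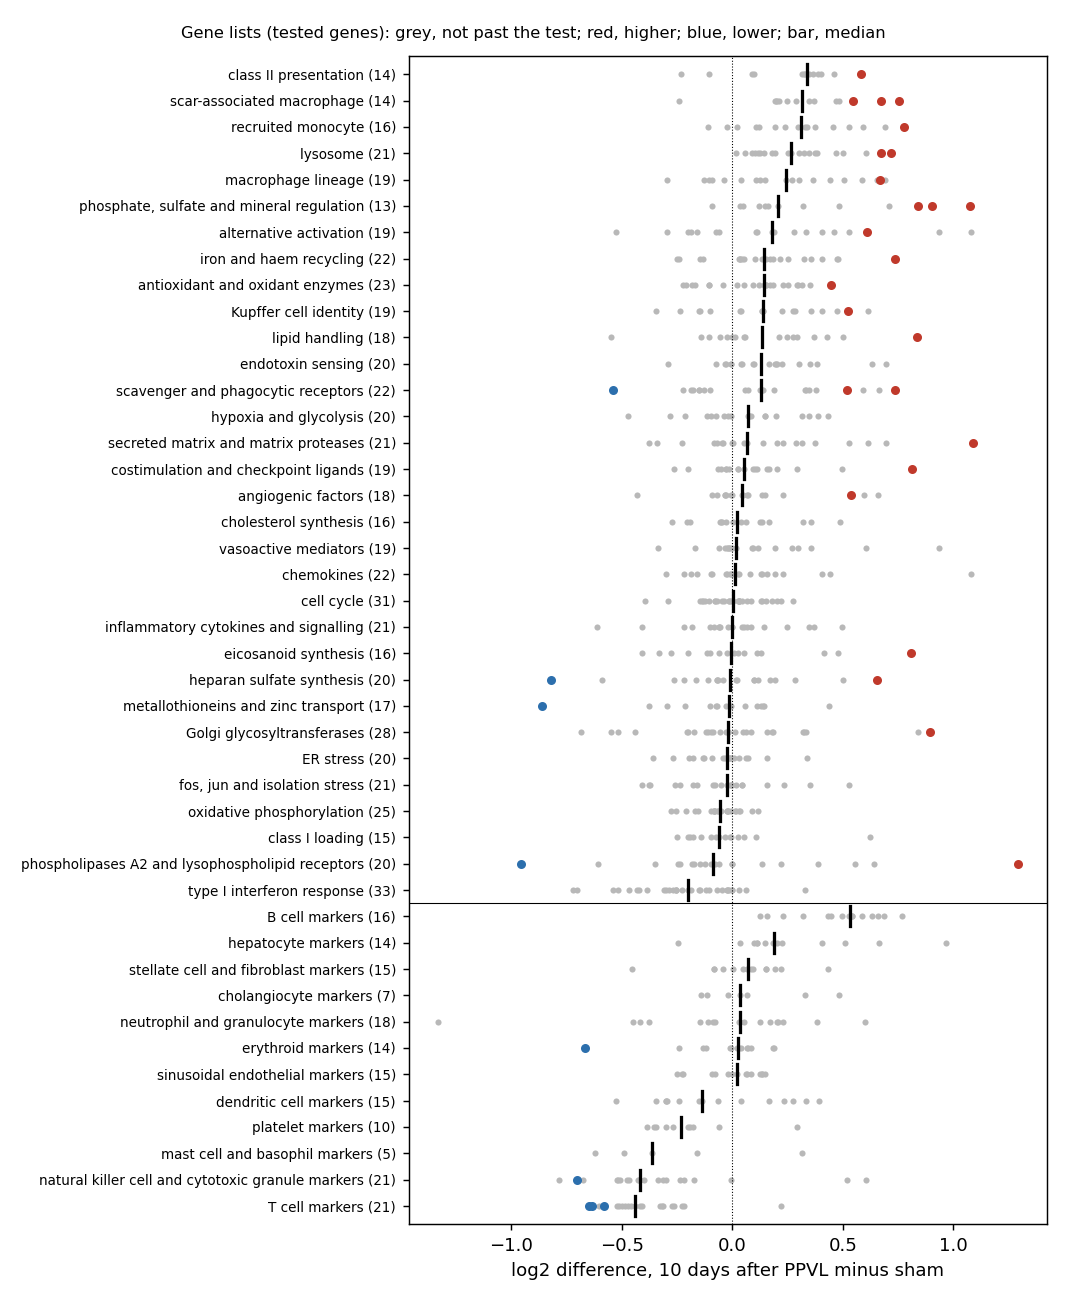
Every tested gene of 44 lists, placed by its log2 difference (10 days after PPVL minus sham, horizontal axis), with 32 programme lists above the line and 12 cell type marker lists below it. Grey points did not pass, red ones rose, blue ones fell, the black bar is the list median, and the number of tested genes is in parentheses. The lysosome and B cell lists lie wholly to the right of 0, and the T cell list lies to the left but for 1 gene.

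The remaining large rises belong to none of the groups above. Myof, a membrane repair protein, rose by 0.87 ± 0.13. Arhgap22, which switches off the GTPase Rac, rose by 0.87 ± 0.13, and Prkag2, a subunit of the energy sensor AMPK, by 0.71 ± 0.11. Elk3, a transcription factor of the ETS family, rose by 0.68 ± 0.12. Receptors known from B cells were among the rises as well: Tnfrsf13c, the receptor for the B cell survival factor BAFF, by 0.78 ± 0.13 and the chemokine receptor Ccr6 by 0.77 ± 0.13. Adjusted p values of these 6 genes lay between 0.0438 and 0.0449.

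Genes known from T cells and natural killer cells were among the named falls. Gzmc, a granzyme of cytotoxic granules, had 10.14, 9.96 and 10.15 in sham rats and 9.38, 9.53 and 9.24 at 10 days. All 10-day rats were below all sham rats, and it fell by 0.70 ± 0.13 (adjusted p = 0.0491). The T cell surface receptors Cd5 and Cd6 fell by 0.58 ± 0.10 and 0.64 ± 0.12, and the adaptor Sla2, which restrains antigen receptor signalling, by 0.65 ± 0.11 (adjusted p = 0.0449, 0.0491 and 0.0449). These 4 genes are those of the 34 falls that belong to the T cell and natural killer cell lists. Outside the lists, Cd7, a surface protein of T and natural killer cells, fell by 0.48 ± 0.072, Runx3, a transcription factor of cytotoxic lymphocytes, by 0.57 ± 0.10, the lymphocyte receptor Gpr171 by 0.52 ± 0.084, the T cell adaptor Grap2 by 0.59 ± 0.11 and the leukocyte kinase subunit Pik3cd by 0.48 ± 0.080. Their adjusted p values lay between 0.0449 and 0.0485.

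Most other genes of these lists were lower as well, without passing. Of 21 T cell genes, 3 fell, 20 were below 0 and 19 were lower at an unadjusted p under 0.05, against 8.21% of all genes (median -0.44). Of 21 natural killer cell and cytotoxic granule genes, 1 fell and 13 were lower at an unadjusted p under 0.05 (median -0.42). The T cell score was 0.32, 0.13 and 0.25 in sham rats and -0.19, -0.06 and -0.25 at 10 days, a difference of -0.40, and the natural killer cell score was 0.14, 0.17 and 0.22 against -0.11, -0.16 and -0.17. B cell genes went the other way: all 16 were above 0 (median 0.53), with none past the adjusted test. At an unadjusted limma p under 0.05, 12 were higher, against 7.99% of all genes. Ms4a1 (CD20) had 7.93, 8.14 and 8.04 in sham rats and 8.67, 8.44 and 9.31 at 10 days (difference 0.77 ± 0.19, adjusted p = 0.0919), highest in 10-day rat 3. The B cell score was -0.36, -0.25 and -0.23 in sham rats and 0.16, 0.08 and 0.36 at 10 days.

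The other cell type lists gave 1 call. Of 14 hepatocyte genes 13 were above 0 (median 0.19), against 49.8% of all genes, and none passed. Albumin (Alb) had 7.67, 6.83 and 7.80 in sham rats and 7.76, 8.25 and 8.30 at 10 days, which overlap (difference 0.67 ± 0.39, adjusted p = 0.448). The secreted protein gene Fetub differed by 0.97 ± 0.20 (adjusted p = 0.0598) and the urea cycle gene Ass1 by 0.51 ± 0.12 (adjusted p = 0.0825), both with no overlap. The hepatocyte score was -0.22, -0.31 and -0.14 in sham rats and -9.4e-05, 0.038 and 0.068 at 10 days, with no overlap and a difference of 0.26. The part of hepatocyte RNA in other changes was not tested. No gene passed in the lists of dendritic cells (15 genes, median -0.14), sinusoidal endothelium (15, 0.021), stellate cells and fibroblasts (15, 0.073), cholangiocytes (7, 0.036), platelets (10, -0.23) and mast cells and basophils (5, -0.37). Of 14 erythroid genes (median 0.026) Dmtn, a protein of the red cell skeleton, fell by 0.67 ± 0.11 (adjusted p = 0.0449). No gene of 18 passed in the neutrophil list (median 0.033), where sham rat 1 stood apart with a score of -0.76 against 0.16 and 0.20 in the other sham rats. In the 10-day group, rat 3 was lowest, with -0.52 against 0.028 and -0.069 in rats 1 and 2. The neutrophil score differed by -0.053 between the groups, by -0.37 without sham rat 1 and by 0.11 without 10-day rat 3. Its sign thus depended on single arrays.

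**Figure D4:**
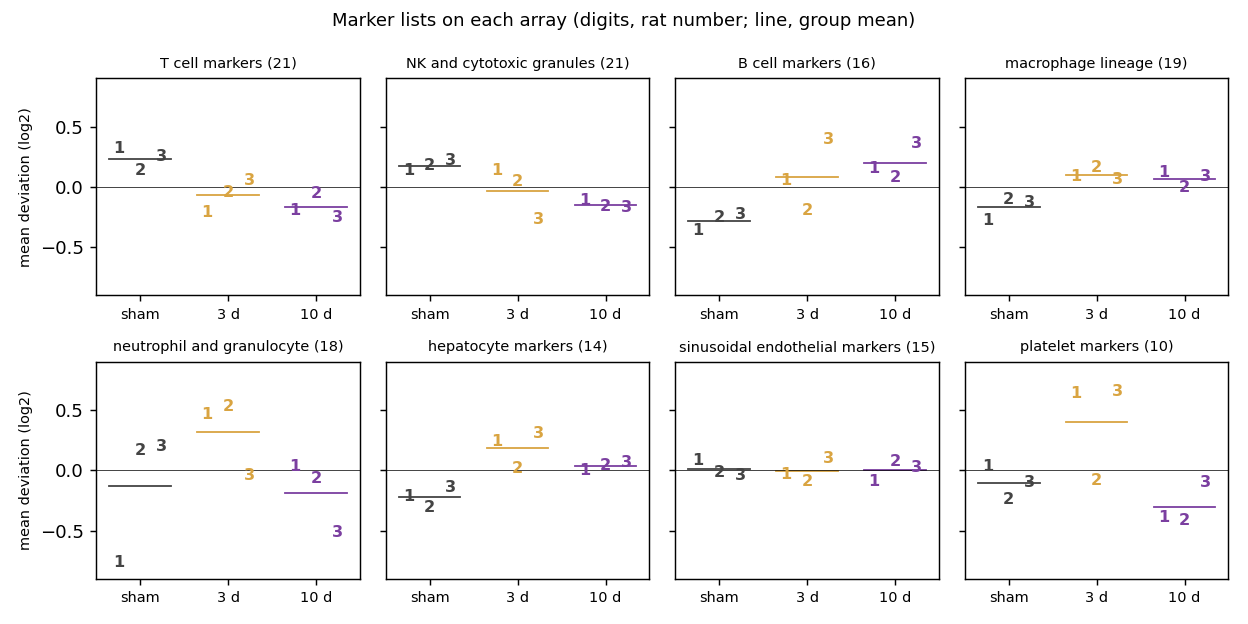
Scores of 8 marker lists on each array (mean deviation from the 9-array mean of each gene, log2, vertical axis), in sham rats and at 3 and 10 days after PPVL. Digits are rat numbers, lines are group means, and the number of tested genes is in parentheses. The T cell and natural killer cell scores of the 10-day rats lie below all sham rats, the B cell and macrophage lineage scores lie above them, and the neutrophil score of sham rat 1 lies far below the rest of its group.

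Among the other falls were genes with no list. Gfra3, a co-receptor for the neurotrophic factor artemin, had 9.86, 9.98 and 9.89 in sham rats and 8.95, 9.34 and 8.99 at 10 days, without overlap, and fell by 0.81 ± 0.11 (adjusted p = 0.0400). Gpm6b, a membrane proteolipid, fell by 0.73 ± 0.12 (adjusted p = 0.0449), with the 10-day rats at 6.67, 6.74 and 6.68. The potassium-chloride cotransporter Slc12a7 fell by 0.64 ± 0.11, the sorting protein Pacs2 by 0.64 ± 0.11 and the ETS factor Etv5 by 0.57 ± 0.095, each with an adjusted p of 0.0449.

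A microRNA gene was among the falls and is described here although it was singled out after its values were seen. Mir18a lies in the miR-17-92 cluster, whose 6 hairpins span 785 bases of chromosome 15 in RefSeq's GRCr8. The mature sequences of the cluster are shown, seed (bases 2 to 8) in capitals, to show that Mir18a shares its seed with none of the other 5, while Mir17 and Mir20a share a seed, as do Mir19a and Mir19b1. An array probeset for such a gene reads RNA of the hairpin's locus and does not measure a mature arm.
rno-miR-17-5p: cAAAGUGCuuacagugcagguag
rno-miR-18a-5p: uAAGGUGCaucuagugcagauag
rno-miR-19a-3p: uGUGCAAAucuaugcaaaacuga
rno-miR-20a-5p: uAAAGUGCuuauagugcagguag
rno-miR-19b-3p: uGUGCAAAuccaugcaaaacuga
rno-miR-92a-3p: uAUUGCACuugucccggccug
Mir18a had signals of 6.32, 6.33 and 6.34 in sham rats and 5.82, 5.95 and 5.94 at 10 days. The sham rats were nearly alike, the groups did not overlap, and the probeset fell by 0.43 ± 0.068 (adjusted p = 0.0449). Its tested neighbours did not pass: Mir17 differed by 0.0056 ± 0.11, Mir19a by -0.39 ± 0.14, Mir20a by -0.020 ± 0.12 and Mir92a1 by -0.16 ± 0.12. Mir19b1 was not among the genes tested.

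Values at 3 days stand beside those at 10 days with a caution, since both comparisons share the 3 sham arrays. At 3 days 401 genes (2.86%) passed. The tests that bear on a change with time compare the days directly, and there 10 of 14014 genes passed (0.0714%). Pla2g2d differed from sham by 1.52 at 3 days and 1.29 at 10 days, Prg4 by 1.71 and 1.09, and Fam20c by 1.12 and 1.08. For Cd80 the values were 0.28 and 0.82, for Ccr6 0.27 and 0.77, for Prkag2 0.22 and 0.71, and for Lpar5 -0.48 and -0.96. None of these 7 genes passed the test between the days.

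Of the 10 genes that passed between the days, 2 had also passed against sham and were singled out after their values were seen. No gene passed between the days without sham rat 2, without 3-day rat 1, without 10-day rat 3 or with the replicate number as a block, so these calls end there. Il23r, a receptor chain for interleukin-23, had 4.10, 4.02 and 4.13 in sham rats and 4.48, 4.52 and 4.68 at 10 days, and differed from sham by -0.12 at 3 days. It rose over sham by 0.48 ± 0.077 (adjusted p = 0.0449), and its 10-day signal exceeded the 3-day signal by 0.60 (adjusted p = 0.0324). Its mean signal of 4.20 lay next to the filter at 4.16. Rpl26-ps13 differed between the days by 0.63 (adjusted p = 0.0461). It is a pseudogene of a ribosomal protein gene, and its probes may read transcripts of the parent gene or of other copies, so its identity is uncertain.

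**Figure D5:**
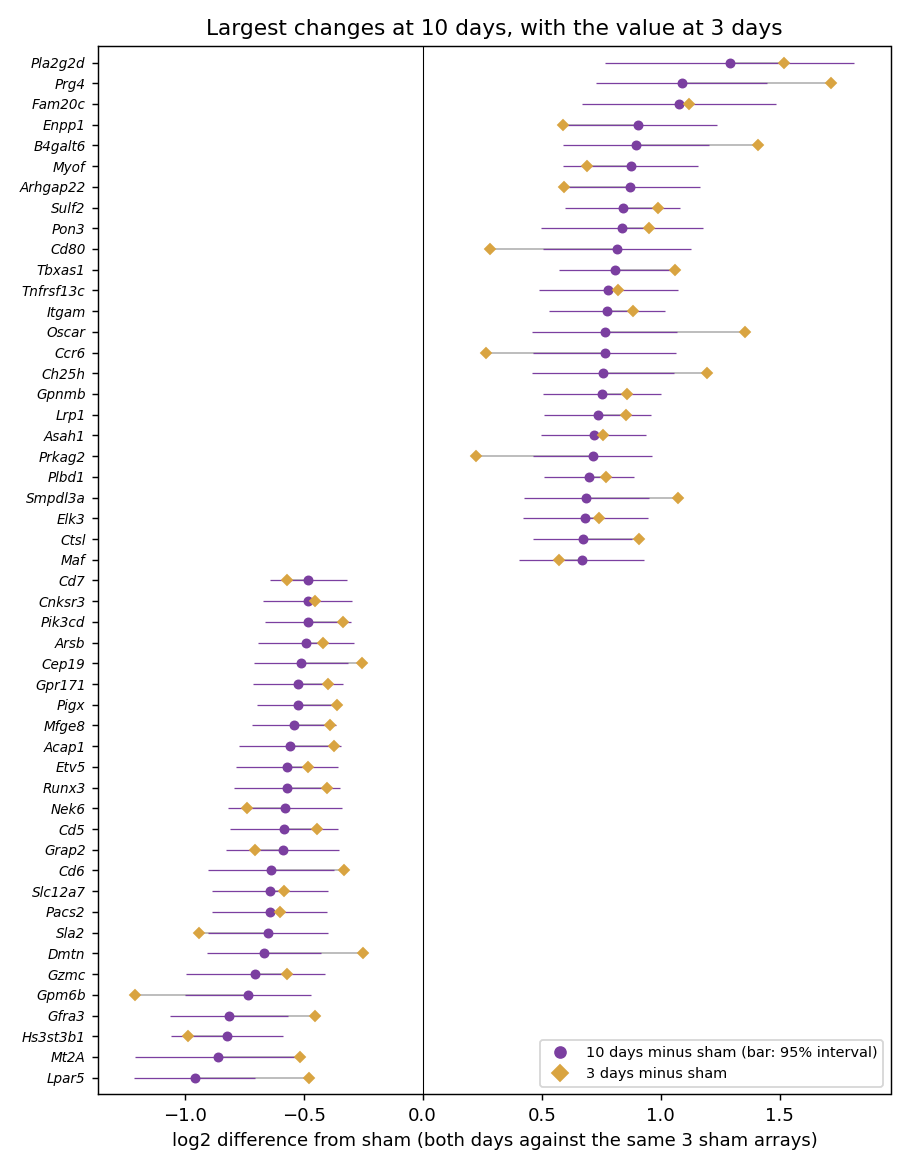
Log2 differences from sham (horizontal axis) for the 25 genes with the largest rises and the 25 with the largest falls past the test at 10 days. Circles are 10 days with their 95% interval, diamonds are 3 days, and both use the same 3 sham arrays. The diamonds of Cd80, Ccr6 and Prkag2 lie nearer to 0 than their circles, and those of Prg4, B4galt6, Oscar and Gpm6b lie further out.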

How the data were processed

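The authors deposited log2 values of 36685 probesets, made by RMA, per the submitters' processing notes, which also name Transcriptome Analysis Console (versions and genome build not given in the sources used here). No further normalisation was applied. Of the probesets, 18511 had 1 gene symbol, 575 several and 17599 none, and the last 2 kinds were left out. The probeset with the highest mean stood for its gene. Genes at or above the 30th percentile (4.16) were tested, 14014 of 18166. limma 3.58.1 (R 4.3.3) fitted all 9 arrays in 3 groups, without trend or robust options, which left 6 residual degrees of freedom beside 3.59 prior ones. The procedure was tested on simulated data with independent noise for each gene and array. Those data held no effect shared by an array, so the simulation cannot show how calls depend on single arrays. Precision is limited by the number of arrays.

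The experiment, the 44 gene lists and the rule for named genes were chosen with earlier results of these data known. Named were the 25 largest rises and falls past the test, up to 6 genes per list, and 20 fixed genes, without unnamed loci. Of the list genes 92 were not matched and 10 matched by synonym.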

Additional observations from a re-analysis of the deposited data

Results flagged for a closer look

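Of the genes that changed at 10 days, 2 also differed between the 10-day and the 3-day rats in limma's direct comparison of the days. Neither call between the days held without sham rat 2, without 3-day rat 1, without 10-day rat 3 or with the replicate number as a block, where 0 genes passed. Il23r was higher at 10 days than at 3 days by 0.60 on the log2 scale. Rpl26-ps13, a pseudogene, was higher by 0.63. The 10-day arrays entered both comparisons, so the choice of these genes at 10 days is not independent of the comparison of the days.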

How the results depend on the processing

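The number of genes called at 10 days, 103 (69 higher, 34 lower), changed with most settings. It was 0 (0 higher, 0 lower) with no filter (2498 at an unadjusted p under 0.05 with limma), with all probesets (4285) and at an adjusted p under 0.01. It was 26 (18 and 8) with each array centred on its median, all 26 among the 103. It was 61 (43 and 18) with only the 2 groups compared, 40 of them among the 103. It was 173 (108 and 65) with a filter at the 50th percentile, 170 (125 and 45) with quantile normalisation, 173 (109 and 64) with an intensity trend and robust moderation, 197 (112 and 85) with array weights and 444 (247 and 197) at an adjusted p under 0.10. With the mean of a gene's probesets it was 110 (72 and 38). Leaving out 1 array gave 0 to 140 genes (0 to 89 higher, 0 to 54 lower). The numbers in the titles were not used as pairs. Same-numbered sham and 10-day arrays correlated at -0.080, -0.095 and -0.089 in their deviations from group means, and those of other numbers at 0.031 to 0.055. Deviations from a mean of 3 arrays sum to 0, so these values cannot settle whether the numbers mark a pairing. With the number as a replicate block the count was 0 (0 and 0), with 2163 genes at an unadjusted limma p under 0.05. Between the days, 10 genes became 0 with all probesets, with the replicate block and at an adjusted p under 0.01, 12 at 0.10, and 0 to 18 without 1 array. In each fit of genes the called genes that were tested kept their direction with an unadjusted limma p under 0.05. They were chosen by their p on the same arrays, so this is no separate support for them. The cause of the changes in count was not tested.

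Named genes that did not pass and lay near 0 turned sign. With quantile normalisation Il1b was 0.017 and Mir17 -0.017. With centred arrays Mir17 was -0.013 and Ptprc -0.0024. With array weights Mir17 was -0.073, Tnf -0.042 and Vegfa 0.0017. Ranges without 1 array were -0.091 to 0.083 for Il1b, -0.078 to 0.12 for Mir17, -0.12 to 0.057 for Mir20a, -0.18 to 0.16 for Mki67, -0.011 to 0.091 for Mt3, -0.18 to 0.014 for Nos2, -0.011 to 0.097 for Pgf, -0.0039 to 0.028 for Ptprc, -0.087 to 0.19 for Tnf and -0.042 to 0.036 for Vegfa. No setting turned the sign of a named gene that passed. Leaving out 1 array could not do so, because the groups did not overlap for any of these genes.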

Other observations

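Several genes had differences of 2-fold or more without passing the test. Ighl14, an immunoglobulin heavy chain gene, differed by 1.42 ± 0.29 (adjusted p = 0.0595), and the light chain segment gene Igkv2-112l2 by 1.26 ± 0.37 (adjusted p = 0.135), both with no overlap between the groups. Met, the receptor for hepatocyte growth factor, had 6.28, 7.67 and 7.45 in sham rats and 8.14, 8.51 and 8.36 at 10 days, a difference of 1.21 ± 0.49 (adjusted p = 0.261). Sham rat 1 was the lowest of these arrays. Gzmbl1, a granzyme gene, differed by -1.20 ± 0.36 (adjusted p = 0.148), with 10-day rat 2 lowest at 5.28. Retnlg, a granulocyte gene, differed by -1.33 ± 0.80 (adjusted p = 0.453), and its groups overlapped, with 4.36 in sham rat 1 and 7.68 and 7.04 in the other sham rats.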
